A study of Homo sapiens with 2 samples.

Results

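RN7SK, RMRP, RPPH1 and RNU6ATAC are genes for noncoding RNAs that RNA polymerase III transcribes from type 3 promoters, whose control elements lie upstream of the transcribed sequence. They were set by name, not by any measured value: a called region counted as theirs when it came within 3 kb of the gene's hg19 start position. These are chr6:52860418 for RN7SK, chr9:35658015 for RMRP, chr14:20811570 for RPPH1 and chr9:137029686 for RNU6ATAC. RN7SK lies on the plus strand and the other 3 genes on the minus strand. By this rule the 4 genes held 5 of the 19782 regions on the assembled chromosomes of the wild-type list and 5 of the 19647 of the knockout list.

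H3K4me3, the trimethylated form of histone H3 lysine 4, was profiled by ChIP-seq. The cells were HEC-1-B, a human uterine adenocarcinoma line established in culture. One library came from wild-type cells and 1 from ZNF143 knockout cells, and both were grown in the same serum-containing medium. The labels give neither the edited allele nor whether the knockout line is 1 clone, and a peak list cannot show the loss of the ZNF143 protein. With 1 library per genotype no difference has a replicate check and no test between genotypes was made.

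ZNF143 is a zinc-finger transcription factor that binds the distal element of many small nuclear RNA promoters, often beside an octamer bound by OCT1 (POU2F1). Nearer to the start, a proximal sequence element recruits the SNAP complex, and a TATA box then directs the promoter to RNA polymerase III. H3K4me3 itself is known mainly from active RNA polymerase II promoters, so the protein-coding and long noncoding genes next to each Pol III gene matter for how a region is read. In the GRCh38.p14 gene table, RN7SK stands between GSTA4 and CILK1, RMRP between SIT1 and CCDC107, and RPPH1 between CCNB1IP1 and PARP2. RNU6ATAC overlaps the long noncoding gene LOC124902297 and has WDR5 and LOC124902298 on either side. GSTA4, CCDC107 and PARP2 are transcribed away from RN7SK, RMRP and RPPH1.

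The RefSeq promoter table had no entry for any of the 4 genes. It did hold the promoter windows of the 3 divergent neighbours, from 250 bases before to 50 after each start. They are shown because each faces a Pol III gene, and they are printed on the strand of that gene. The build is GRCh38.p14, so these positions are not on the scale of the hg19 regions, and whether a window lies inside a called region was not determined. Capitals mark matches, on either strand, to a ZNF143 core (CCCANNATG), the octamer (ATTTGCAT), a short form of the proximal sequence element (ACCNTNA) or a TATA box (TATANA). The GSTA4 window is chr6:52995235-52995534 on the plus strand, the CCDC107 window chr9:35658042-35658341 on the minus strand and the PARP2 window chr14:20343385-20343684 on the minus strand.
GSTA4 window, RN7SK strand: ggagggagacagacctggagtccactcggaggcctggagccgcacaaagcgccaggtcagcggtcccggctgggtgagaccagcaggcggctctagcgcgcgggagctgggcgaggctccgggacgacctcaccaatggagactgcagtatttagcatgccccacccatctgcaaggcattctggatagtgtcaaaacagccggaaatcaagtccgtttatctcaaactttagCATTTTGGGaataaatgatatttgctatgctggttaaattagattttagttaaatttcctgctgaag
CCDC107 window, RMRP strand: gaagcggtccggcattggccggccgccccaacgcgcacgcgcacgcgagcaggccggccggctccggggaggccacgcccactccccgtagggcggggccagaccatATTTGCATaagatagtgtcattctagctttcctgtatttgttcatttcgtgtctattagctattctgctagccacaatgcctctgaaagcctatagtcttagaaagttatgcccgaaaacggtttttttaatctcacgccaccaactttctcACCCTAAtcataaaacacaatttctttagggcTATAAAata
PARP2 window, RPPH1 strand: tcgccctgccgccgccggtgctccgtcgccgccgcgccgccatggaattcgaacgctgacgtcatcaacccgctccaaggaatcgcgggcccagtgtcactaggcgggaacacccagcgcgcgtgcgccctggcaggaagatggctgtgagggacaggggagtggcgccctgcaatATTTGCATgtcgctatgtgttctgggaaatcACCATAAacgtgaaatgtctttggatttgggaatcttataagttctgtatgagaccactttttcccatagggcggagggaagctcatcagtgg

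The 3 windows differed in the elements they held. Each window is set on the start of the neighbour, so the windows need not cover the same part of each Pol III promoter. An element missing from a window may lie outside it. The GSTA4 window had the ZNF143 core, as CCCAAAATG on the strand opposite to RN7SK (bases 234 to 242 of the printed sequence). It had no exact match to the other 3 motifs. It does hold ATTTAGCAT and ATTTGCTAT, each of which is the octamer with 1 base inserted. Neither was counted, and whether they act as octamers was not tested. The CCDC107 window had the octamer at bases 108 to 115, the proximal element as ACCCTAA at 260 to 266 and the TATA box as TATAAA at 292 to 297, all reading in the direction of RMRP. The PARP2 window had the octamer at bases 177 to 184 and the proximal element as ACCATAA at 208 to 214, both reading in the direction of RPPH1, and no match to the TATA pattern. After the proximal element this window does hold TATAAG, which differs from the pattern TATANA only in the last base. It was not counted, and whether it acts as a TATA box was not tested. No 2 of the marked matches overlapped. Of all 35116 promoter windows, 4.63% held the ZNF143 core, 1.77% the octamer, 27.1% the proximal element and 19.0% the TATA box. An octamer followed by the proximal element on 1 strand, an order looked up after these matches were seen, occurred in 56 windows (0.159%), the CCDC107 and PARP2 windows among them. A match is a string of letters and not evidence of binding, and a window without one says only that these letters are not in it.

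Each of the 4 genes had a region in both lists, and the 2 regions overlapped at every gene. Over the whole lists 94.5% of wild-type regions overlapped a knockout region and 90.3% of knockout regions overlapped a wild-type region. Overlap at 4 of 4 genes is thus near the background and is no result about these genes. The share of all genes with a region within 3 kb was not determined, so the presence count has no background and is no result either. The nearest region lay wholly upstream of the start position at each gene in each list. At RN7SK, RMRP and RPPH1 that is the side of the divergent neighbours GSTA4, CCDC107 and PARP2. Whether a region marks the Pol III gene or a neighbouring Pol II gene was not tested. No region at any of the 4 genes covered the start position.

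RN7SK encodes the 7SK RNA, the scaffold that holds the elongation factor P-TEFb inactive together with HEXIM1, LARP7 and MEPCE. Its wild-type region ran from 52859608 to 52860050, from 810 to 368 bp upstream of the start, on the side of GSTA4, a glutathione S-transferase gene. In the knockout it ran from 52859602 to 52860391 and ended 27 bp before the start. The outer edge thus differed by 6 bp and the edge facing the gene by 341 bp. The width was 443 bp in wild-type cells and 790 bp in knockout cells, a ratio of 1.78, against a median ratio of 1.06 over 16501 one-to-one pairs of regions. That ratio stood at the 96.3 percentile of all pairs, and 3.61% of pairs had an edge that moved by at least as much. Both values are taken over all pairs, and pairs with as few fragments as RN7SK were not set apart. The lists also differed in depth: the lowest background rate, in fragments per base, was 1.40 for wild-type and 3.25 for knockout cells, and the part of this difference in the widths was not tested.

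The RN7SK region was also the weakest of the 4 nearest regions. The number of fragments stacked at its summit (the pileup, computed back from the deposited fold and p-value of each region) was 46 in wild-type cells and 93 in knockout cells, at the 23.0 and 25.8 percentile of the lists. The authors' fold, the pileup over a local background rate, was 15.7 and 15.0, at the 75.7 and 74.4 percentile. The local rate was 2.00 and 5.27 fragments per base, which was 1.42 and 1.62 times the lowest rate in each library. A rank above the middle of the list by fold thus stood beside a rank in its lower part by pileup. The next region was 65813 bp away in wild-type cells and 65432 bp in knockout cells, so RN7SK had the most isolated region of the 4 genes.

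RMRP encodes the RNA of RNase MRP, an enzyme of ribosomal RNA processing. Its region ran from 35658287 to 35659072 in wild-type cells and from 35658274 to 35659119 in knockout cells, on the side of CCDC107. The edge facing RMRP was 272 bp upstream of the start in wild-type cells and 259 bp in knockout cells. The width was 786 and 846 bp. The pileup was 414 and 622 fragments, the highest of the 4 genes in both lists. The fold was 20.5 and 21.3 (93.1 and 96.2 percentile), whereas by pileup the region stood at the 82.7 percentile in wild-type cells and at the 71.4 percentile in knockout cells. The local rate was 13.7 times the lowest rate of the library in wild-type cells and 8.69 times in knockout cells.

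RPPH1 encodes H1 RNA, the RNA of RNase P, which trims the 5′ leader of precursor tRNAs, and PARP2 next to it encodes a poly(ADP-ribose) polymerase of DNA repair. RPPH1 was the only one of the 4 genes with a region on both sides. The upstream region, towards PARP2, ran from 20811781 to 20812557 in wild-type cells and from 20811765 to 20812604 in knockout cells, starting 211 and 195 bp from the RPPH1 start. Its pileup was 304 and 556 fragments, at the 65.4 percentile of both lists, and its fold 18.2 and 16.5. The summits of the lists were 1 bp apart, at 398 and 399 bp upstream.

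The downstream RPPH1 region was weaker. It ran from 20810475 to 20811114 in the wild type, 456 to 1095 bp past the start, and from 20810378 to 20810909 in the knockout, 661 to 1192 bp past it. Its pileup was 68 and 134 fragments and its fold 4.12 and 4.02, at the 7.18 and 10.5 percentile. The start position lay in the stretch without a call between both regions, whose ends were 667 bp apart in wild-type cells and 856 bp in knockout cells. The downstream region was the only one of the 5 that was narrower in the knockout, at 532 against 640 bp. Its width ratio of 0.83 stood at the 3.60 percentile of all pairs, and pairs of similarly low pileup were not set apart.

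RNU6ATAC encodes U6atac RNA, the counterpart of U6 in the minor spliceosome. Its region ran from 137030114 to 137030736 in wild-type cells and from 137030106 to 137030860 in knockout cells, with the nearer edge 428 and 420 bp upstream. This was the largest gap between region and start among the 4 genes in wild-type cells and in knockout cells. The width was 623 and 755 bp, a ratio of 1.21 (80.8 percentile of pairs). The fold was 22.7 and 23.9, at the 96.9 and 98.5 percentile, the highest fold of the 4 genes in each list. The pileup was 187 and 422 fragments, at the 48.6 and 54.7 percentile.

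**Figure D1:**
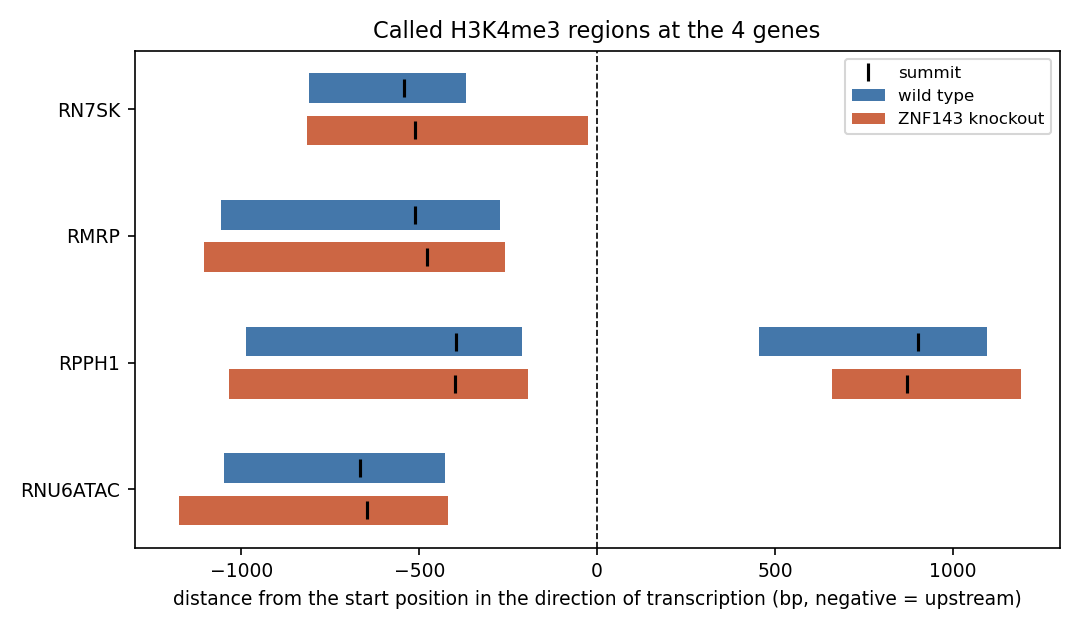
Called H3K4me3 regions at the 4 genes, as bars along the distance from the start position in bp (negative values are upstream in the direction of transcription), with the summit of each region as a black tick. In both lists the nearest region ended between 27 and 428 bp before the start, RPPH1 had a second region past the start, and the RN7SK bar reached closer to the start in the knockout.

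The nearest region was wider in the knockout at all 4 genes, where 82.2% of all pairs were wider. Counting both RPPH1 regions together, 1417 bp in the wild type against 1372 bp in the knockout, 3 of 4 genes had more covered bases in the knockout. By width the nearest regions stood between the 22.7 and 42.8 percentile in wild-type cells and between the 34.0 and 39.0 percentile in knockout cells, below the middle of the list in each case. The list medians were 883 and 1003 bp.

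Summits lay at similar distances in both lists, namely 542 and 511 bp upstream of the start at RN7SK in the wild type and the knockout, 511 and 478 bp at RMRP, and 666 and 646 bp at RNU6ATAC. The 4 differences were between 1 and 33 bp, and the median difference over all pairs was 18 bp.

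Within each list the 4 genes ranked higher by fold than by the other measures. The median fold percentile of the nearest regions was 90.0 in the wild type (75.7 to 96.9 over the genes) and 89.3 in the knockout (74.4 to 98.5), and the median over all regions is 50 by construction. By −log10 q, the authors' measure of significance for each region, the median percentile was 67.5 (31.1 to 91.7) and 71.4 (32.3 to 84.9). The −log10 q values themselves were 43.5 and 77.9 at RN7SK, 379 and 577 at RMRP, 265 and 457 at RPPH1, and 185 and 415 at RNU6ATAC, wild type first. Their order among the 4 genes was the same in both lists: RMRP, RPPH1, RNU6ATAC, RN7SK. By fold the order was RNU6ATAC, RMRP, RPPH1, RN7SK in both lists.

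Rank shifts between the lists were small by fold. Taken as knockout minus wild type, the change in percentile was −1.27 points at RN7SK, 3.06 at RMRP, −4.49 at RPPH1 and 1.61 at RNU6ATAC. The knockout rank was lower at 2 of 4 genes, where 50.1% of all pairs were lower. None of the 4 genes moved by more than 10 points, while 9.44% of all pairs fell and 8.90% rose by more than that. The median size of the shift over all pairs was 3.89 points.

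By −log10 q the shifts were 1.17 points at RN7SK, −6.80 at RMRP, −1.40 at RPPH1 and 9.21 at RNU6ATAC. The rank was lower in the knockout at 2 of 4 genes by this measure too, against 44.4% of pairs, but it was RMRP and RPPH1 and not RN7SK and RPPH1. With ranks taken among the one-to-one pairs alone, the RN7SK shift was −0.80, so 3 of 4 genes were lower, where 49.5% of pairs were, and the shifts at RMRP, RPPH1 and RNU6ATAC were −7.47, −1.49 and 9.80. Among all pairs, the RMRP shift stood at the 12.3 percentile and the RNU6ATAC shift at the 89.4 percentile. By pileup RMRP shifted by −11.32 points and RNU6ATAC by 6.14. The spread of pileup rank shifts over all pairs was not determined, so how common shifts of this size are is not known. RMRP therefore ranked higher in the knockout by fold and lower by the other 2 measures.

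**Figure D2:**
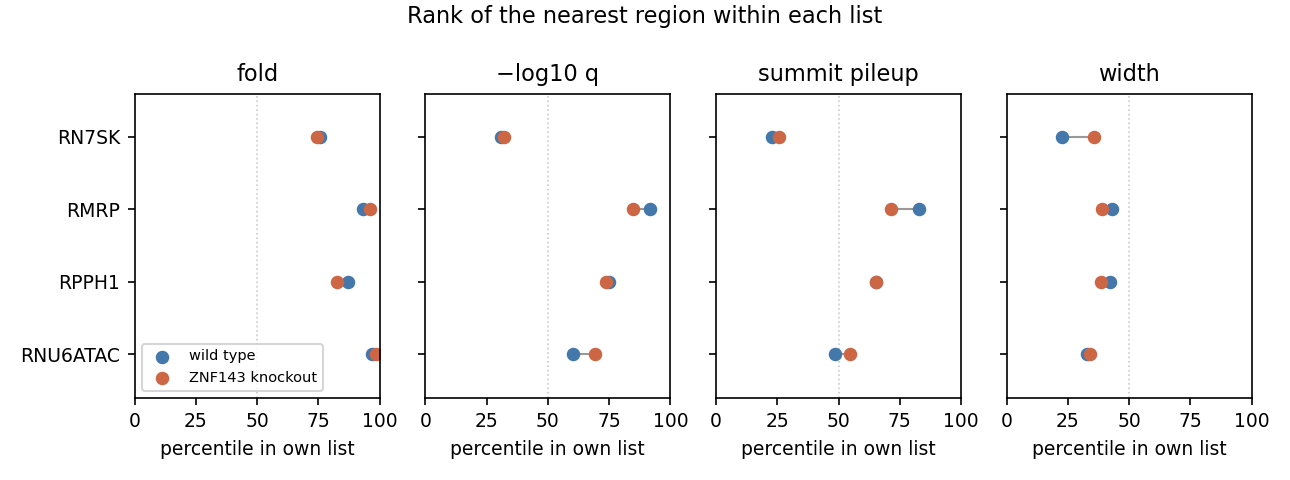
Percentile of the nearest region of each gene within its own list, by the authors' fold, by −log10 q, by recovered summit pileup and by width, with 1 point per list and a grey line joining both. All fold points lie at or above the 74.4 percentile and all width points at or below the 42.8 percentile, and RMRP and RNU6ATAC move in opposite directions by −log10 q and by pileup.

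The pileups were then compared directly. Over all pairs the knockout pileup was 1.86 times the wild-type pileup at the median (0.89 on the log2 scale), and the log2 ratios were centred on that value. The centred ratio was 0.28 at RNU6ATAC (95% counting interval 0.03 to 0.54), 0.12 at RN7SK (−0.40 to 0.66), −0.02 at RPPH1 (−0.23 to 0.18) and −0.31 at RMRP (−0.49 to −0.12). These exact binomial intervals cover counting error only. The intervals of RNU6ATAC and RMRP did not overlap, and every other pair of intervals did. Over all pairs the quartiles of the centred ratio were −0.2 and 0.19, and 82.6% of pairs lay within 0.5 of the median. Among all pairs RMRP stood at the 16.9 percentile and RNU6ATAC at the 82.4 percentile, so values this far apart are common. Scaling to the lowest background rate of each library in place of the median puts the median of all pairs at −0.32, and on that scale the values were −0.04 at RNU6ATAC, −0.19 at RN7SK, −0.34 at RPPH1 and −0.62 at RMRP. This scaling moves every pair by the same amount, and with it the sign at RNU6ATAC and RN7SK changes.

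RMRP and RNU6ATAC are both on chromosome 9, where the median centred ratio of the other 757 pairs was −0.27 without RMRP and −0.28 without RNU6ATAC. RMRP lay at the level of its surroundings: the median of 96 pairs within 5 Mb was −0.32, 49 of them lay below RMRP, and its value relative to them was 0.01. RNU6ATAC did not. The median of 146 pairs within 5 Mb of it was −0.13, with quartiles of −0.31 and 0.01, and 136 of these (93.2%) lay below RNU6ATAC, which stood 0.41 above their median. The lower end of its counting interval, 0.03, was close to the upper quartile of these pairs. With 1 library per genotype this departure has no replicate check. RN7SK differed by 0.01 from 29 pairs within 5 Mb, and RPPH1 by −0.06 from 91. Why chromosome 9 was lower in the knockout library was not tested.

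**Figure D3:**
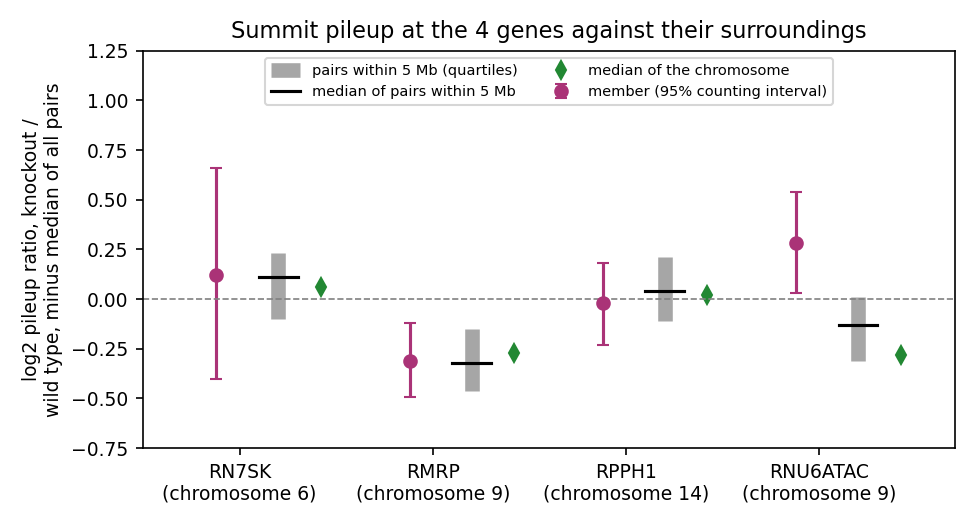
Log2 ratio of knockout to wild-type summit pileup, minus the median of all pairs, for the nearest region of each gene (points with 95% counting intervals), with the quartiles and median of pairs within 5 Mb (grey bars with a black line) and the median of the chromosome (diamonds). RMRP, at −0.31, lies on its local median of −0.32, and RNU6ATAC, at 0.28, lies above the upper quartile of 0.01 of its surroundings.

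The regions next to each gene, beyond 3 kb, had centred ratios from −1.01 to 0.27, and the 4 genes had ratios from −0.31 to 0.28. At RMRP the next region on the CCDC107 side began 6554 bp from the start and had a pileup of 252 in wild-type cells and 530 in knockout cells, a centred log2 ratio of 0.18. On the SIT1 side, 10672 bp away, the pileup was 139 and 128, a ratio of −1.01. At RPPH1 the flanking regions, 10070 bp away on the CCNB1IP1 side and 69261 bp away on the PARP2 side, had ratios of −0.01 and −0.03, close to that of RPPH1.

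At RNU6ATAC the next region lay 27491 bp away on the side of WDR5, which encodes a core subunit of the H3K4 methyltransferase complexes. Its pileup was 394 and 602, a ratio of −0.28. On the other side, 187505 bp away, the pileup was 129 and 290, a ratio of 0.27. At RN7SK the nearest further regions were 113110 bp away on the GSTA4 side, with a ratio of −0.71, and 65445 bp away on the CILK1 side, with 0.06.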

How the data were processed

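H3K4me3 ChIP-seq was deposited as 1 narrowPeak list per genotype, grouped by the genotype in the labels. Per the submitters' processing notes, Bowtie2, SAMtools 1.12, MACS2 and deepTools and the builds GRCh37 and hg19 were used; cutoffs, a control library, scaling and the treatment of reads that align to several places are not given in the sources used here. The deposited fold (a ratio of summit pileup to local background rate), −log10 p and −log10 q and the score are the authors' values per region; the score column was not used. Fold and −log10 q were ranked within 1 list only. Pileups recovered from the fold and −log10 p were also compared between the lists.

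Pileups were recovered by solving for the whole number that gives the fold as (pileup + 1)/(rate + 1) and the −log10 p as a Poisson tail; the relative error of −log10 p was at most 1.17e-05. The recovery was tested on simulated data. Regions on other sequences (785 wild-type, 862 knockout) were left out. Percentiles are ranks within a list; pairs are regions with exactly 1 overlapping partner (at least 1 bp) in each direction. Where a gene had 2 regions, the nearest stood for it. Named were the 4 genes, their regions, the next region and next gene on either side. Genes and lists were chosen with earlier results of these data known. Strands come from general knowledge. Other type 3 genes and their factors were not analysed here, since no hg19 annotation was used. Alternatives concerned the window, threshold, overlap, merging, rank measure, centring and motif. Scripts ran in Python 3.11.15 with pandas 2.3.3, numpy 2.4.6, matplotlib 3.10.9 and scipy 1.17.1.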

Additional observations from a re-analysis of the deposited data

How the results depend on the processing

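No paired analysis was possible because there was a single library per genotype, which also left no replicate to leave out. The 4 genes had a region in each list, and overlapping ones, under windows of 1 and 10 kb, with −log10 q required to reach 5, and, for the overlap, under a reciprocal overlap of 50%. The count of genes with more covered bases in the knockout, 3, was 4 after merging regions within 1 kb and 4 with the nearest region alone, an alternative added after seeing the data. The median fold percentile, 90.0 in wild-type cells and 89.3 in knockout cells, became 88.5 and 87.8 among one-to-one pairs, and 88.9 in the knockout at a −log10 q of at least 5. The median −log10 q percentile, 67.5 and 71.4, became 64.5 and 68.7 among pairs, 68.7 and 72.6 with all sequences, and 66.1 and 70.2 at the stricter −log10 q threshold. The median centred log2 pileup ratio, 0.05, became −0.27 when scaled to the lowest background rate, and 0.01 when centred on the same chromosome or on pairs within 5 Mb. The sign of the rank shift changed with the measure at 2 genes: RN7SK went from −1.27 by fold to 1.17 by −log10 q and 2.80 by pileup, and RMRP from 3.06 to −6.80 and −11.32. The sign at RN7SK by −log10 q also depended on the ranking base: among one-to-one pairs it was −0.80, and the count of genes lower in the knockout by −log10 q was 3 in place of 2. The cause was not tested. Of the 3 promoter windows, 1 held the ZNF143 core, also with the shorter core CCCANNNTG, which 20.7% of all windows hold. Depth limits RN7SK most, with 46 and 93 fragments at the summit.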
